A study of Mus musculus with 14 samples.

Results

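The 41 genes described here are a fixed list of interferon-stimulated genes (ISGs), matched by symbol to the gene identifiers of the deposited counts through the GENCODE mouse annotation. They are 41 of 56980 gene identifiers, and all 41 were among the 22339 genes with more than 10 counts in total. They were measured by bulk RNA sequencing of whole kidneys from female CD-1 mice, an outbred stock, in a study of how preterm birth bears on diabetic kidney disease. At 18 weeks of age there were 4 term nondiabetic (T-ND) mice, 4 term diabetic (T-D) mice, 3 preterm nondiabetic (PT-ND) mice and 3 preterm diabetic (PT-D) mice. All were wild type and had received cationic ferritin, an imaging agent. T-D and PT-D mice had been given low-dose streptozotocin (STZ), a toxin of pancreatic beta cells, in early adulthood, and T-ND and PT-ND mice had not. Some PT-D mice of the study had a further round of STZ, and which of them is not given in the sources used here. Preterm pups were delivered by Caesarean section shortly before term and raised by foster mothers that had received acepromazine, a sedative, while term pups stayed with their own mothers. Preterm birth and this care cannot be told apart in these data.

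Interferons are secreted proteins that cells release when sensors such as RIG-I or MDA5 detect foreign or misplaced nucleic acid. Type I interferons bind the receptor of IFNAR1 and IFNAR2, and the kinases JAK1 and TYK2 then phosphorylate STAT proteins, of which STAT2 joins IRF9 in the factor ISGF3. ISGF3 binds the interferon-stimulated response element (ISRE), while interferon gamma acts through a shorter palindrome, the gamma-activated site (GAS). The induced genes block viral replication, and SOCS1 and USP18 damp the signal. In the kidney, tubular, endothelial and immune cells can all respond.

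The 41 ISGs were sorted by role into 6 transcription factors, 3 nucleic acid sensors, 9 RNA-binding IFIT and OAS effectors, 4 other antiviral effectors, 3 genes of the ISG15 system, 9 GTPases of the GBP and IRG families and 7 other genes. Many sit beside relatives in the GRCm39 genome. With neighbours up to 1000 kb apart, 21 of them fell into 8 clusters. Ifit2, Ifit3, Ifit3b and Ifit1 lay together on chromosome 19 from 34527932 to 34632174, Gbp5, Gbp7, Gbp3 and Gbp2 on chromosome 3 from 142199739 to 142343779, and Oas2, Oas3 and Oas1a on chromosome 5 from 120868398 to 121046449.

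The list was chosen by gene and not by promoter, so promoters were searched for both elements. The window ran from 250 bases before to 50 bases after the start of the canonical transcript. The ISRE was taken as GAAA, any 2 bases and GAAA again, on either strand, so that it reads TTTC, 2 bases and TTTC on the other. It was found in 23 of the 41 windows (56.1%) and in 597 of 16165 windows of protein-coding genes (3.69%). The GAS letters TTCNNNGAA were found in 10 of the 41 windows (24.4%) and in 1277 of all (7.9%). All 3 sensors had an ISRE match, as did 6 of the 9 IFIT and OAS genes and 5 of the 9 GTPases. Stretches of 40 bases before the start sites of 9 genes are given as examples, with ISRE letters in capitals. Each was placed around a match to the fixed letters, so the likeness of the capitals was set by the search. Those of Ifit3 and Ifit3b were identical over the whole stretch.
Isg15: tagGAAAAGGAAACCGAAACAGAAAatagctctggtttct
Ifit1: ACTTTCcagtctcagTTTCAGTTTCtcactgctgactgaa
Ifit3: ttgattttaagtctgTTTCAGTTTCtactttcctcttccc
Ifit3b: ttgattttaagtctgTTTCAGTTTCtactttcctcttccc
Oas2: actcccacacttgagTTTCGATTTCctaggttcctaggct
Oas3: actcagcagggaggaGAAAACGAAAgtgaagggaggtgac
Stat2: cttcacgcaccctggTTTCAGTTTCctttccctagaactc
Trim30a: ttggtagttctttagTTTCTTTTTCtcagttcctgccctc
Zbp1: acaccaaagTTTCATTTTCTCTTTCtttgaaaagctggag

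These stretches lie in GRCm39 at chr4:156285317-156285356 for Isg15, chr19:34618189-34618228 for Ifit1, chr19:34560792-34560831 for Ifit3, chr19:34585188-34585227 for Ifit3b, chr5:120887965-120888004 for Oas2, chr5:120915775-120915814 for Oas3, chr10:128106130-128106169 for Stat2, chr7:104114412-104114451 for Trim30a and chr2:173060737-173060776 for Zbp1. Ifit1, Ifit3, Ifit3b and Stat2 are on the plus strand and the other 5 on the minus strand, and each is written in the direction of its gene. In the stretch of Ifit1 the first 6 capitals are the end of an ISRE that began upstream. In Trim12c, which was called in 4 comparisons, the ISRE letters were TTTCTGTTTC and lay after the start site, from base 17 to base 26 of the transcript. A match describes letters only, and binding was not measured.

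Between 16697246 and 28673176 reads per library were counted on genes. They numbered 21079460 to 26187982 in PT-D and 18188647 to 18922371 in PT-ND, without overlap. Genes with a count numbered 21632 to 22818 in PT-D and 20312 to 21307 in PT-ND. The part of depth in the differences between these groups was not tested. Values below are counts normalized with edgeR's TMM factors to the mean library. A gene was called when edgeR's quasi-likelihood test gave an adjusted p under 0.05, with Benjamini-Hochberg adjustment over all genes tested, and the log2 fold change lay above 1 or below −1. Kidney markers were abundant in all libraries, with a summed level from 161388 to 221439.7 normalized counts. Xist was counted in all 14 libraries, and 4 Y-linked genes had at most 3 counts each in total.

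One library stood apart before any comparison. T-ND replicate 3 was the highest of the 4 T-ND libraries in 40 of the 41 ISGs, where 27.7% of all genes were highest in it, and Irf8 was the exception. Its values were a median of 3.96 times the mean of the other 3 T-ND libraries, from 0.978 times for Irf8 to 8.46 times for Igtp, and lay inside or above the T-D range for 39 ISGs. As the median ISG deviation from the 14-library mean on the log2 scale, T-ND replicate 3 had 0.98, while T-ND replicates 1, 2 and 4 had −1.93, −0.88 and −0.42. T-ND replicate 1 was the lowest of all 14 libraries for 34 ISGs. T-ND replicate 3 also had the highest T-ND sums of macrophage and monocyte markers (6495), of T and NK cell markers (360.3), of neutrophil markers (1190.0) and of plasmacytoid dendritic cell markers (70.2 normalized counts), whose part in its ISG level was not tested. Its sums of B and plasma cell markers (90.1) and of endothelial markers (10079) were the lowest of T-ND. Groups follow the labels, which match the study's sample sheet library by library. A plot of the study marks all 14 libraries with symbols of another group or sex, so it does not single out T-ND replicate 3. Whether the labels are right was not tested and bears on all groups. Because T-ND replicate 3 stood apart, counts and medians of comparisons with T-ND are given with it and without it. So are most tests of single genes. The library was picked out by its ISG values, so wider ISG differences from T-ND without it follow from that choice. The share of all genes is then no even measure beside them, and such counts are descriptions.

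The same deviation was 0.03, 1.10, 0.32 and 0.73 in the 4 T-D libraries, −0.71, −1.27 and −0.58 in the 3 PT-ND libraries and 1.28, 0.17 and 0.88 in the 3 PT-D libraries. The 4 T-D and 3 PT-D libraries were thus all above the 3 PT-ND libraries, and the 2 diabetic groups overlapped. PT-D replicate 2 was the lowest PT-D library for 39 of the 41 ISGs. In the labels 5 libraries bear an a at the end of their name. They are replicate 1 of T-D and of PT-D, replicate 2 of PT-ND and replicates 1 and 2 of T-ND, and so stand in all 4 groups, and the sources used here do not say what the suffix stands for.

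**Figure D1:**
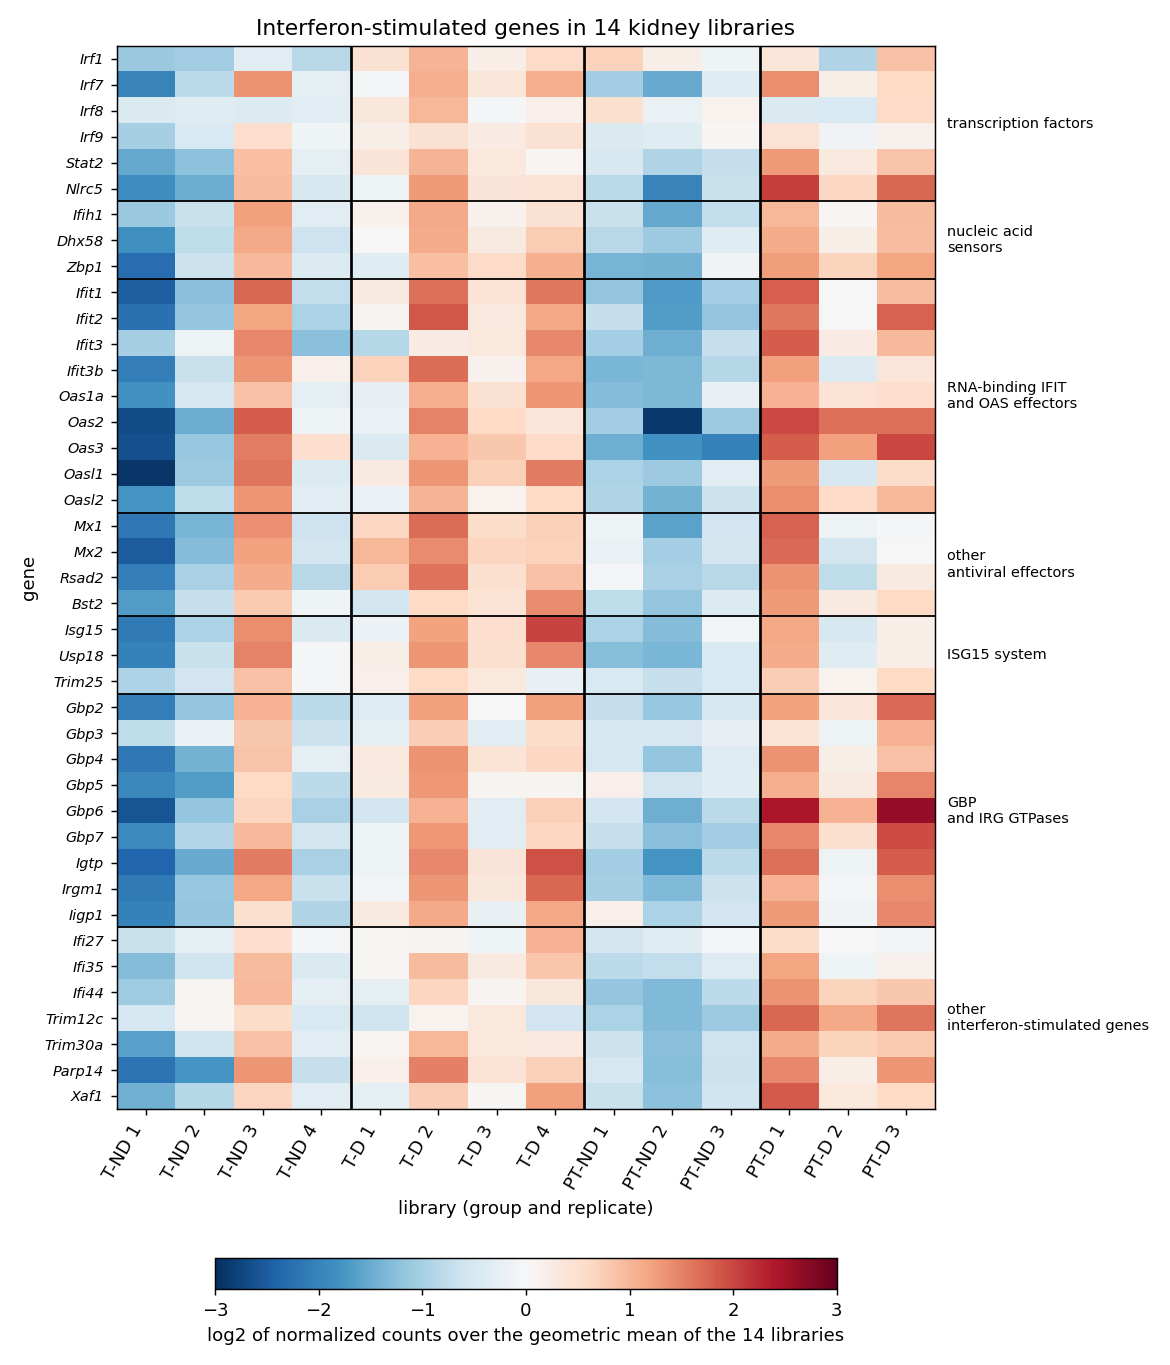
Heat map of the 41 ISGs (rows, by role) in the 14 libraries (columns, by group), with the color giving the log2 of the normalized count over the geometric mean of the 14 libraries, from blue (lower) to red (higher). The T-ND replicate 3 column is red in nearly every row (median 0.98) and the T-ND replicate 1 column blue (median −1.93), while the 3 PT-ND columns lie between −1.27 and −0.58.

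Levels differed widely between the ISGs. As reads per kb of exon, scaled to equal depth, the mean over 14 libraries was highest for Isg15 (166), which encodes a ubiquitin-like modifier, Ifit3 (97.6) and Bst2 (93.6), the tether that holds virions at the cell surface. It was lowest for Gbp6 (3.16), Oas2 (3.00) and Oas3 (0.564). The rarest transcripts were thus among those with the widest differences between PT-D and PT-ND. The fewest reads of any ISG in any library were 7, for Oas3 in T-ND replicate 1.

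Diabetic preterm kidneys carried more ISG transcripts than nondiabetic preterm kidneys. Between PT-D and PT-ND, 32 of the 41 ISGs rose and none fell by edgeR's test, where 2.96% of the 22303 genes tested rose. The median log2 fold change was 1.65 over the ISGs and 0.05 over all genes, 39 of the 41 were positive (52.5% of all genes), and the groups did not overlap for 31 ISGs, where 18.7% of all genes lay wholly higher in PT-D. Called were 3 of 6 transcription factors, all 3 sensors, all 9 IFIT and OAS genes, 1 of 4 other antiviral effectors, 2 of 3 genes of the ISG15 system, 8 of 9 GTPases and 6 of 7 other ISGs. The role medians were 0.99, 1.65, 2.17, 1.36, 1.13, 1.88 and 1.87 in that order. The 9 genes that were not called were Irf1, Irf8, Irf9, Mx1, Mx2, Rsad2, Isg15, Gbp3 and Ifi27. Of these, Gbp3 passed the adjusted p (log2 fold change 0.93, adjusted p = 0.0366) and fell short of the fold limit.

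The calls of 24 of the 32 ISGs were kept in all 6 fits that left out a library. Those of Gbp5, Ifi35, Ifit3b, Iigp1, Irf7, Oasl1, Trim25 and Usp18 were lost in 1 or more, and the number called ran from 24 without PT-ND replicate 2 to 37 without PT-D replicate 2. A joint fit of all 14 libraries, which shares the spread of the T-ND libraries, called 13 ISGs. The fit of PT-D and PT-ND libraries without the name suffix called 18, with a median of 1.16, and the single pair of PT-D and PT-ND libraries with the suffix differed by a median of 2.50 on the log2 scale.

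Beside these differences, markers of some other cells were called as well, where 2.96% of all genes rose and 52.5% were positive. All 10 neutrophil markers were higher in PT-D than in PT-ND, 5 of them called, and their sum lay between 1669 and 5675 normalized counts in PT-D and between 295 and 1487 in the other 11 libraries. Ly6g, a defining neutrophil marker, had between 0.800 and 14.6 normalized counts in PT-D. Among 10 endothelial markers, 7 were higher in PT-D than in PT-ND and 3 were called, with sums of 12616 to 16968 in PT-D and 6244 to 13878 elsewhere. Of 15 macrophage and monocyte markers 7 were higher and 4 called, with sums of 5986.6 to 10667 in PT-D and 5788.6 to 7409 in PT-ND. T and NK cell markers summed to 283 to 343 in PT-D and 157 to 353 in PT-ND, and plasmacytoid dendritic cell markers to 37.6 to 60.2 and 31.2 to 61.1, with none of either list called. Of 8 B and plasma cell markers 3 were higher and none called, with sums of 278 to 450.2 in PT-D and 317 to 1605 in PT-ND. None of the genes of these lists was without counts. The part of these cells in the ISG result was not tested, and in whole kidney more cells of a type and more RNA per cell cannot be told apart.

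In term mice most ISG differences after STZ were positive, but with T-ND replicate 3 included no ISG was called. Between T-D and T-ND, 40 of 41 log2 fold changes were positive (48.4% of all genes) with a median of 0.79 (−0.02 over all genes). An unadjusted p under 0.05 was reached by 5 ISGs and by 11.8% of all genes. None was called by edgeR, where 0.0673% of 22275 genes were called, and DESeq2 called 1, Irf1, and 0.831% of genes as higher. Only Irf1 and Irf8 had no overlap between the groups, where 2.90% of all genes lay wholly higher in T-D. Without T-ND replicate 3, which was picked out by its high ISG values, the median was 1.55 and all 41 were positive (49.5% of genes). Then 17 rose, where 0.966% of genes rose, and 31 had no overlap (6.08% of all genes). The 17 were Dhx58, Gbp2, Gbp4, Gbp5, Ifi35, Ifit1, Ifit2, Igtp, Iigp1, Irf1, Irgm1, Mx1, Mx2, Nlrc5, Oasl1, Parp14 and Rsad2. Of these, 13 were among the 32 called between PT-D and PT-ND, and the other 4 were Irf1, Mx1, Mx2 and Rsad2. The median was 0.32 in the fit of libraries without the name suffix, which kept T-ND replicate 3, and the difference of mean log2 values was 1.35 among those with it. Macrophage and monocyte markers summed to 6117 to 12522 in T-D and 4009.5 to 6495 in T-ND, with none of the 15 called, and their part was not tested.

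Whether STZ acted differently in preterm and term mice was asked by the interaction over all 14 libraries. It was positive for 37 of 41 ISGs (53.0% of all genes) with a median of 0.85, and 2 were called, Trim12c and Ifi44, where 1.98% of genes were called in this direction. Without T-ND replicate 3 the median was 0.06, 21 of 41 were positive (52.0% of genes) and Trim12c alone was called (1.15% of genes in this direction). The median interaction of the ISGs thus depended on 1 library, while the interaction of Trim12c was called in all 14 fits that left out a library. It was lost among libraries without the name suffix, at 2.54 (adjusted p = 0.0755). From mean log2 values, the median was 1.07 among libraries with the name suffix and 0.77 among the others.

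Between PT-D and T-ND, the groups at the ends of the design, all 41 log2 fold changes were positive with a median of 0.95, against 0.03 and 51.9% positive over all genes. Gbp6 and Trim12c rose, as did 0.995% of the genes tested. They were the 2 ISGs without overlap between the groups, where 2676 of 22310 genes lay wholly higher in PT-D. DESeq2 called Irf1 as well, and 2.55% of genes as higher. Without T-ND replicate 3 the median was 1.79, 28 ISGs rose (3.35% of genes), all 41 were positive (51.6%) and 33 had no overlap (18.0%). Only without this library were Gbp6 and Trim12c called among the 7 fits that left out a library, and the adjusted p ran from 0.0064 to 0.153 for Gbp6 and from 0.00515 to 0.0937 for Trim12c. The median was 0.16 in the fit of libraries without the name suffix, where none was called, and 2.68 as a difference of mean log2 values among those with it. All 10 neutrophil markers had positive log2 fold changes here as well, 3 of them called, and their part in the ISG differences was not tested.

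The 2 diabetic groups overlapped in 37 of the 41 ISGs. Between PT-D and T-D the median log2 fold change was 0.22 (0.06 over all genes), 26 of 41 were positive (53.7% of all genes), and Trim12c alone rose, where 0.135% of genes rose. Ifi44, Oas2, Oas3 and Trim12c had no overlap between the groups, where 12.4% of all genes lay wholly higher in PT-D. The call of Trim12c was lost without T-D replicate 1, PT-D replicate 1 or PT-D replicate 3, with adjusted p-values from 0.0275 to 0.0807 over the 7 fits. The median was −0.17 in libraries without the name suffix, and the single PT-D and T-D libraries with it differed by 1.16, so that the direction of the median turned with the suffix.

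The ISGs of nondiabetic preterm and term kidneys were not separated by the test. Between PT-ND and T-ND the median was −0.65 and 4 of 41 were positive (49.9% of all genes). None was called by edgeR, where 0.0809% of genes were called, and 6 had an unadjusted p under 0.05 (10.7% of genes). DESeq2 called Irf1 as higher and Trim12c as lower, and 0.759% of genes in either direction. Without T-ND replicate 3 the median was 0.08, 26 were positive (50.5% of genes) and Irf1 rose (0.323% of genes). As a difference of mean log2 values, the median was 0.14 among libraries with the name suffix and −0.92 among the others.

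**Figure D2:**
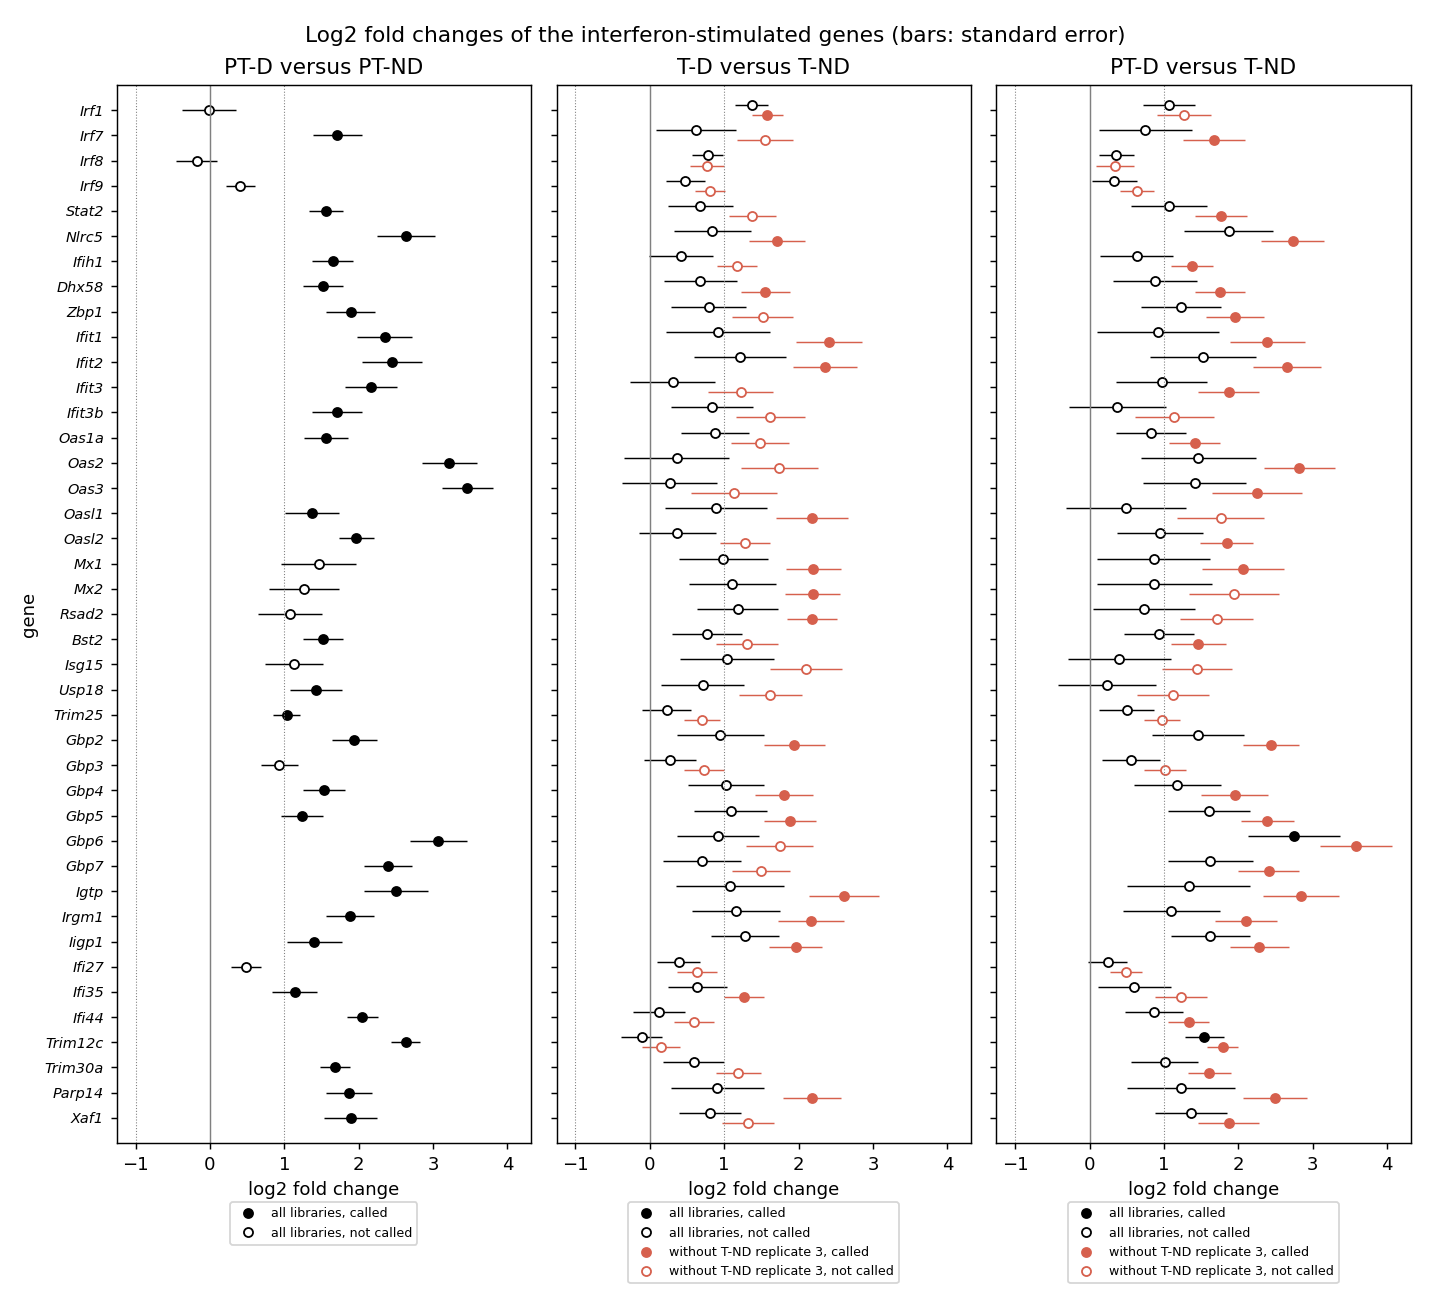
Log2 fold changes (horizontal axes) of the 41 ISGs (rows) with standard errors as bars, for PT-D versus PT-ND, T-D versus T-ND and PT-D versus T-ND, with filled points for called genes, and in red the values without T-ND replicate 3. In the left panel 32 points are filled, and in the other 2 panels the red points lie to the right of the black ones for most genes (medians 1.55 against 0.79 and 1.79 against 0.95).

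Among the transcription factors, Nlrc5, Stat2 and Irf7 rose in PT-D over PT-ND and Irf1, Irf8 and Irf9 did not pass. Nlrc5, the transactivator of MHC class I genes, had 234, 102 and 257 normalized counts in the PT-ND libraries and 1712, 634 and 1349 in PT-D (log2 fold change 2.64 ± 0.39 SE, adjusted p = 0.00462). In the term groups it had 113, 147, 793 and 292 in T-ND and 368, 994, 534 and 551 in T-D. The 3 PT-ND libraries lay below all T-D and PT-D libraries. Stat2, the ISGF3 subunit, had 1337, 1001 and 1150.3 in PT-ND and 4587, 2294 and 3412 in PT-D (log2 fold change 1.56 ± 0.23 SE, adjusted p = 0.00475). Its T-ND values were 648, 806, 3530.1 and 1556, and those in T-D 2448, 3839, 2345 and 1960.3, so that T-ND replicate 3 lay within the T-D range. Irf7, the factor that amplifies interferon transcription, rose by 1.71 on the log2 scale between PT-ND and PT-D (adjusted p = 0.0111).

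Irf1, a factor that responds mainly to interferon gamma, was not called between PT-D and PT-ND. It had 677, 711, 1178 and 820.2 normalized counts in T-ND, 2011, 2996, 1698 and 2176 in T-D, 2381, 1664 and 1343 in PT-ND and 1887, 783 and 2688 in PT-D. All T-D and PT-ND libraries and PT-D replicates 1 and 3 lay above the 4 T-ND libraries, and PT-D replicate 2 lay within the T-ND range. Its log2 fold change was 1.37 between T-D and T-ND (standard error 0.22, adjusted p = 0.0523) and 1.58 without T-ND replicate 3 (adjusted p = 0.00483). Between PT-D and PT-ND it was −0.01 (adjusted p = 0.991), and the interaction was −1.40 (adjusted p = 0.0781). Irf8, a factor of myeloid cells, had 459.8 to 498 in T-ND, 599 to 1247 in T-D, 545 to 876 in PT-ND and 453 to 934 in PT-D, with all T-D and PT-ND libraries above T-ND. It was not called in any comparison. Adding the 2 strand counts gave 1.28 times the unstranded counts of Irf1, since reads shared with a gene on the other strand were left uncounted, so its level is a lower estimate.

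All 3 sensors rose in PT-D over PT-ND. Zbp1, a sensor of left-handed double helices that can trigger necroptosis, had 189, 187 and 464 normalized counts in PT-ND and 1178, 793 and 1128 in PT-D (log2 fold change 1.89 ± 0.33 SE, adjusted p = 0.00768). In term mice it had 101, 319, 965 and 369.8 in T-ND and 383, 925, 732 and 1036 in T-D, which overlapped. Ifih1, which encodes MDA5, and Dhx58, which encodes its relative LGP2, had log2 fold changes of 1.65 and 1.52 between PT-D and PT-ND.

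The widest differences between PT-D and PT-ND were those of Oas3 and Oas2, enzymes that make short adenylate chains when they bind double-stranded RNA. Oas3 had 18.8, 14.7 and 12.7 normalized counts in PT-ND and 183, 121 and 208 in PT-D, 11 times as many (log2 fold change 3.46 ± 0.34 SE, adjusted p = 0.00111). In term mice it had 8.32, 23.7, 149.8 and 74.2 in T-ND and 38.5, 107, 91.4 and 77.2 in T-D. All PT-D libraries were above all T-D libraries, and T-ND replicate 3 lay inside the PT-D range. For Oas2 the values were 81.4, 22.6 and 78.5 in PT-ND and 661, 524 and 524 in PT-D (log2 fold change 3.22 ± 0.37 SE, adjusted p = 0.0018). They were 26.1, 59.4, 588 and 154 in T-ND and 145, 467, 255 and 215 in T-D, again all below PT-D but for T-ND replicate 3. Between PT-D and T-D neither passed (log2 fold changes 1.11 and 1.07, adjusted p = 0.103 and 0.096), while DESeq2 called both, with Gbp6 and Trim12c, and 335 of 22294 genes as higher. The interaction was 3.16 for Oas3 (adjusted p = 0.0505) and 2.84 for Oas2 (adjusted p = 0.102), and without T-ND replicate 3 it was 2.31 (adjusted p = 0.0951) and 1.47 (adjusted p = 0.255).

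The other IFIT and OAS genes rose as well. Oasl2, an OAS-like protein, had 699.9, 493 and 843 normalized counts in PT-ND and 3420.2, 1952 and 2594 in PT-D (log2 fold change 1.97 ± 0.24 SE, adjusted p = 0.00249). In T-ND it had 377 to 3286 and in T-D 1154 to 2674. Ifit1, which binds viral mRNA caps, had 1666, 1171 and 1868 in PT-ND and 13003, 3807 and 7242 in PT-D (log2 fold change 2.35 ± 0.37 SE, adjusted p = 0.00559). Its T-ND values were 677, 1586, 12429 and 2285 and its T-D values 4543, 11942, 5038 and 11264. T-ND replicate 3 was thus above all 4 T-D libraries, and the difference between T-D and T-ND was 0.92 with it, which was not called, and 2.41 without it (adjusted p = 0.0228). Ifit2 had 1165 to 2254 in PT-ND and 3755 to 12669 in PT-D (log2 fold change 2.45, adjusted p = 0.00625). Oas1a and Oasl1 had log2 fold changes of 1.56 and 1.37 there. The Oas1a transcript was 97.5% identical to that of Oas1g over 1860 bases, so reads of these 2 may be split unevenly.

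**Figure D3:**
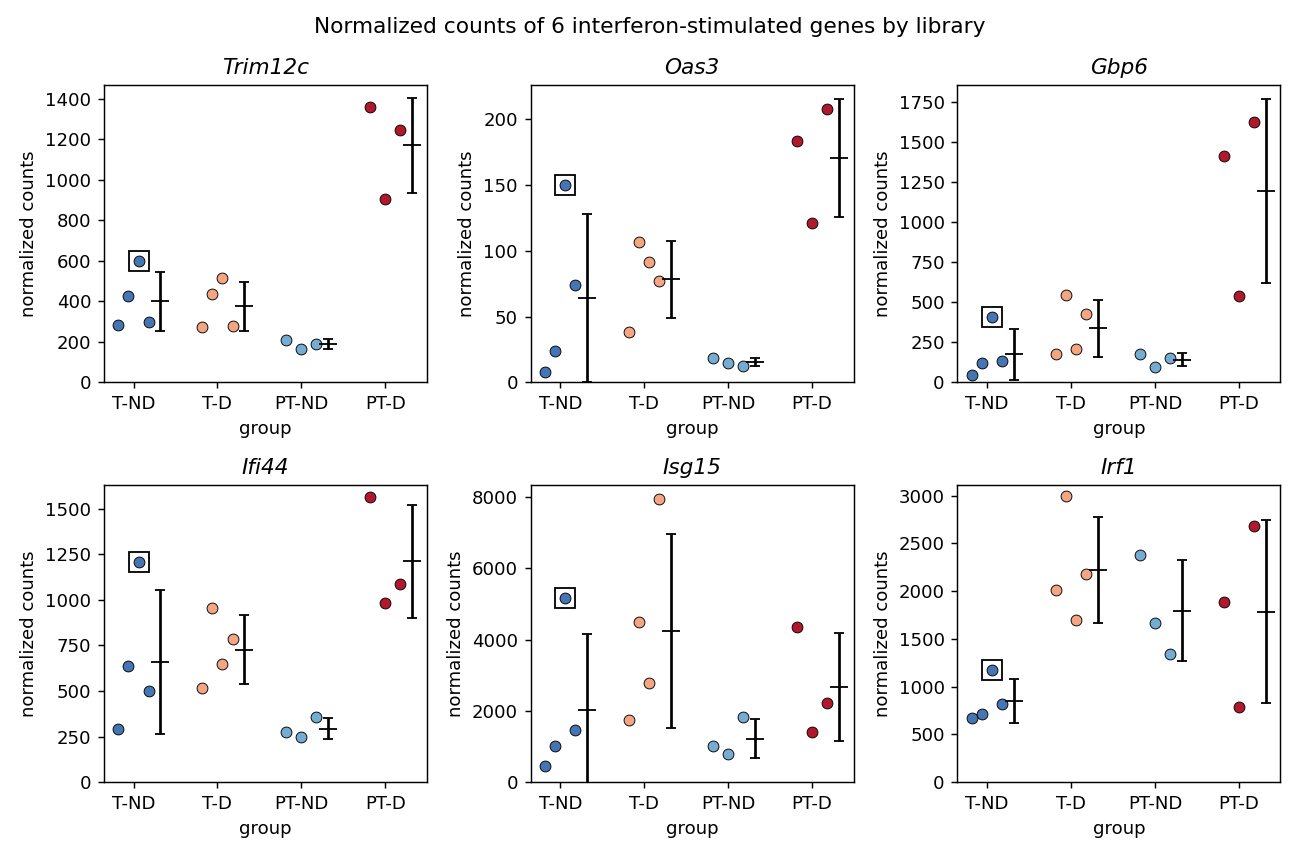
Normalized counts (vertical axes, from 0) of Trim12c, Oas3, Gbp6, Ifi44, Isg15 and Irf1 in each library by group, with a bar for mean ± SD beside the points (cut at 0) and a square around T-ND replicate 3. The 3 PT-D libraries of Trim12c lie between 905 and 1357 and all others between 163 and 597, whereas for Isg15 and Irf1 the PT-D libraries lie among the T-D libraries or below them.

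Ifit3 and Ifit3b, neighbouring genes, are near copies. Their transcripts were 96.9% identical over 2055 aligned bases, and the counts hold uniquely mapped reads only. Both rose in PT-D over PT-ND (log2 fold changes 2.17 and 1.71, adjusted p = 0.00593 and 0.0117). Ifit3 had 2158, 3883, 11734 and 1807 normalized counts in T-ND, 2387, 5138, 5405 and 11799 in T-D, 2151, 1564 and 2696 in PT-ND and 15244, 5119.6 and 8492 in PT-D. Ifit3b had 579, 1549, 6197 and 2719.5 in T-ND, 3994, 7887, 2701 and 5514 in T-D, 943, 959 and 1365 in PT-ND and 5727, 1848 and 3146 in PT-D. The counts of Ifit3 were 1.63 to 3.73 times those of Ifit3b in 11 libraries and 0.598 to 0.664 times in the other 3, which were T-ND replicate 4 and T-D replicates 1 and 2. No library lay between. The sum of both was 2523 to 4061 in PT-ND and 6967 to 20970.6 in PT-D, and 2736 to 17931 in T-ND and 6381 to 17313 in T-D. The split between the copies and its cause were not tested, so the values of each copy alone are uncertain, and the sums of PT-ND and PT-D do not overlap.

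**Figure D4:**
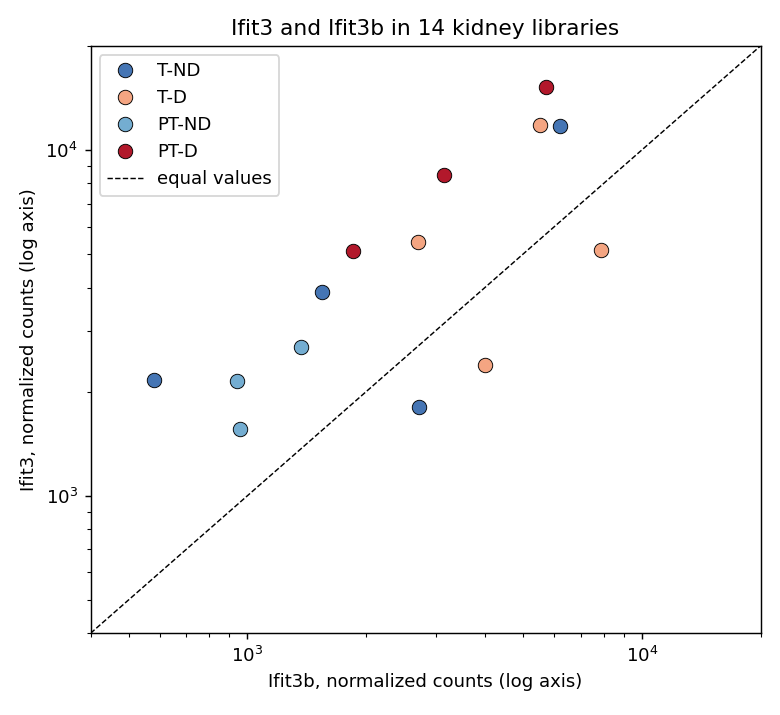
Normalized counts of Ifit3 (vertical log axis) against Ifit3b (horizontal log axis) in the 14 libraries, colored by group, with a dashed line at equal values. Of the 14 points, 11 lie above the line (ratios 1.63 to 3.73) and 3, of T-ND replicate 4 and T-D replicates 1 and 2, lie below it (0.598 to 0.664).

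Among the other antiviral effectors, Bst2 alone rose in PT-D over PT-ND. It had 1135, 853 and 1455 normalized counts in PT-ND and 4634, 2329.9 and 2902 in PT-D (log2 fold change 1.52 ± 0.27 SE, adjusted p = 0.00774), and 600.0, 1200.1, 3344 and 1766 in T-ND and 1324, 2929.5, 2561 and 5139.5 in T-D. Rsad2, which encodes viperin, had 4980.3, 2607 and 2859 in PT-ND and 12975, 3013 and 6121 in PT-D, where PT-D replicate 2 lay within the PT-ND range (log2 fold change 1.08, adjusted p = 0.124). In term mice it had 1239, 2606, 11059.7 and 2856 in T-ND and 8680.0, 15842, 7072 and 9378 in T-D. Without T-ND replicate 3 all T-D libraries lay above T-ND, at 2.18 on the log2 scale (adjusted p = 0.0104, and adjusted p = 0.418 with it). The GTPases Mx1 and Mx2, which block incoming viral particles, had log2 fold changes of 2.20 and 2.19 between T-D and T-ND without that library and 1.46 and 1.26 between PT-D and PT-ND (adjusted p = 0.0771 and 0.105). The interactions of Rsad2, Mx1 and Mx2 were not called, with adjusted p-values of 0.956, 0.817 and 0.96.

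In the ISG15 system, Isg15 was the most abundant ISG per length and did not pass between PT-D and PT-ND. It had 447, 1022, 5168 and 1451 normalized counts in T-ND, 1744, 4503, 2778 and 7939 in T-D, 1021, 798 and 1838 in PT-ND and 4341, 1414 and 2230.4 in PT-D. T-D replicate 4 was the highest library, and PT-D replicate 2 lay within the PT-ND range. The log2 fold change was 1.13 between PT-D and PT-ND (adjusted p = 0.0806) and −0.67 between PT-D and T-D (adjusted p = 0.428). Trim25, a ubiquitin ligase of the RIG-I pathway, had 1443 to 1717 in PT-ND and 2498 to 3904 in PT-D (log2 fold change 1.03, adjusted p = 0.0081). Usp18, which removes ISG15 from its targets and restrains the receptor, had 369.8 to 690.0 and 739.5 to 2051 (log2 fold change 1.42, adjusted p = 0.0252). The strand counts of Usp18 summed to 1.31 times its unstranded count, and those of Ifi35 to 1.81, of Dhx58 to 1.27 and of Gbp2 to 1.11 times, so that the unstranded counts of these genes leave out reads.

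Guanylate-binding proteins (GBPs) and immunity-related GTPases (IRGs) attack the vacuoles of intracellular pathogens and are classical targets of interferon gamma. Gbp6 had the widest rise among them, with 177, 96.1 and 151 normalized counts in PT-ND and 1416, 541 and 1627 in PT-D, 8.42 times as many (log2 fold change 3.07 ± 0.38 SE, adjusted p = 0.0025). It had 44.0, 119, 408 and 133 in T-ND and 176, 545, 206 and 429.9 in T-D, and PT-D replicate 2 lay just below the highest T-D library. Between PT-D and T-ND its log2 fold change was 2.75 (adjusted p = 0.048), or 3.58 without T-ND replicate 3 (adjusted p = 0.0064), and between PT-D and T-D 1.82 (adjusted p = 0.0706). Its transcript was 98.5% identical to that of Gbp10 over 4332 bases, so the split between them is uncertain, and Gbp10 had 208 to 737 in PT-D and 24.9 to 78.2 in PT-ND.

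Gbp7 had 782, 535 and 618 normalized counts in PT-ND and 3469, 1774 and 4920.5 in PT-D (log2 fold change 2.39 ± 0.32 SE, adjusted p = 0.00319), with 339 to 2497 in T-ND and 1006 to 3122 in T-D. Gbp2 had 1650.0, 1220.4 and 1915 in PT-ND and 6231, 3464 and 8682 in PT-D (log2 fold change 1.94 ± 0.30 SE, adjusted p = 0.00518), and 636, 1194, 5542 and 1525 in T-ND and 2068, 6342, 2703 and 6351 in T-D. PT-D replicate 3 had the highest value of all 14 libraries for both. Irgm1, a regulator of the other IRGs, reached 13300.3, 6245 and 16938 in PT-D and 6086, 16148, 8081 and 21183 in T-D, against 3219.8, 2579 and 4134 in PT-ND and 1480.5, 2917, 14242 and 4033 in T-ND. It rose by 1.88 on the log2 scale between PT-ND and PT-D (adjusted p = 0.00718) and differed by −0.09 between the diabetic groups (adjusted p = 0.931). Iigp1, an effector IRG, had 1313 to 2793 in PT-ND and 2361 to 6878 in PT-D, which overlapped, and was called there (log2 fold change 1.40, adjusted p = 0.0327). Gbp4, Gbp5 and Igtp had log2 fold changes of 1.53, 1.24 and 2.50 between PT-D and PT-ND, all called.

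Trim12c, a relative of the TRIM5 restriction factor on chromosome 7, alone among the 41 ISGs separated PT-D from every other group. It had 1357, 905 and 1248 normalized counts in PT-D, 212, 163 and 192 in PT-ND, 272, 439, 514 and 277 in T-D and 282, 427, 597 and 299 in T-ND. No PT-D library overlapped any of the other 11, and all PT-ND libraries lay below all T-ND and T-D libraries. Outside the list, Uba7 (from 660.5 in PT-D, up to 636.9 elsewhere) and Stat3 (from 5979 in PT-D, up to 5794 elsewhere) separated PT-D as well. Over all genes, 12.4% lay wholly higher in PT-D than in T-D and 18.7% than in PT-ND. The share that lay above all 11 was not computed. The log2 fold change was 2.63 against PT-ND (standard error 0.19, adjusted p = 0.000216), 1.63 against T-D (standard error 0.25, adjusted p = 0.0238) and 1.54 against T-ND (standard error 0.26, adjusted p = 0.027). The last was, without T-ND replicate 3, 1.79 (adjusted p = 0.00515). Between T-D and T-ND it was −0.11 (adjusted p = 0.906), and 0.15 without that library (adjusted p = 0.864), and the interaction was 2.73 (standard error 0.39, adjusted p = 0.00541), or 2.47 without T-ND replicate 3. The transcript was 96.3% identical to that of Trim12a over 1149 bases, and Trim12a had at most 12.9 normalized counts except for 80.8 in PT-D replicate 3.

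Trim30a, its neighbour on chromosome 7, followed the wider pattern. It had 533, 351 and 541 normalized counts in PT-ND, 1792, 1328 and 1437 in PT-D, 268, 548, 1519.9 and 663 in T-ND and 861, 1652, 1030.3 and 1024 in T-D. It rose between PT-ND and PT-D (log2 fold change 1.68 ± 0.20 SE, adjusted p = 0.00214), and PT-D and T-D overlapped.

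Ifi44, a cytoplasmic protein induced by type I interferon, was the other ISG with a called interaction. It had 277, 247 and 356 normalized counts in PT-ND and 1565, 986 and 1086 in PT-D (log2 fold change 2.05 ± 0.21 SE, adjusted p = 0.00119). In term mice it had 292, 638, 1209 and 499.8 in T-ND and 514, 958, 649 and 785 in T-D (log2 fold change 0.12, adjusted p = 0.924), or 0.59 without T-ND replicate 3 (adjusted p = 0.38). All PT-D libraries were above all T-D libraries, and the interaction was 1.91 (standard error 0.50, adjusted p = 0.0379). This call was kept in 4 of 14 fits that left out a library. Their adjusted p-values ran from 0.0293 to 0.0869, and without T-ND replicate 3 the interaction was 1.44 (adjusted p = 0.0525). Parp14, an ADP-ribosyltransferase, had 1235 to 2081 in PT-ND and 3385 to 8136 in PT-D (log2 fold change 1.87, adjusted p = 0.00678), and 636, 875, 7429 and 1849.9 in T-ND. Ifi27 had 1058 to 1499 in PT-ND and 1456 to 2255 in PT-D (log2 fold change 0.48, adjusted p = 0.138). Xaf1 and Ifi35 had log2 fold changes of 1.89 and 1.14, both called.

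Genes with and without ISRE letters both rose in PT-D over PT-ND. Of the 23 genes with a match 20 were called, with a median log2 fold change of 1.68, and of the 18 without a match 12 were called, with a median of 1.5. Over all genes 2.96% rose, with a median of 0.05. Isg15, Rsad2 and Ifi27 held a match and were not called, and Gbp6, at 3.07, held none.

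The rest of the pathway was followed from ligand to inhibitor. Interferon transcripts were near the limit of detection. Of 11 ligand genes 7 had no count in any library, and Ifnb1 alone passed the filter, with 19 reads over 14 libraries and its widest range, 0 to 6.92 normalized counts, in PT-ND. Ifng had 3 reads each in T-D replicate 2 and PT-D replicate 1 and none elsewhere, where a count of 0 allows up to 3 reads. None of the 6 receptor genes was called in any comparison, and their summed level was 3096 to 3666 in T-ND, 3252 to 4855 in T-D, 3299 to 3819 in PT-ND and 4089.6 to 4606 in PT-D.

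Among the JAK-STAT genes, Stat3, a factor of the gp130 cytokines, was called between PT-D and PT-ND, and Jak1, Tyk2 and Ptpn1 passed the adjusted p below the fold limit. Stat3 had 3420.0, 2418 and 2196 normalized counts in PT-ND and 6691, 5979 and 7417 in PT-D (log2 fold change 1.32 ± 0.19 SE, adjusted p = 0.00412). In term mice it had 1990.2, 1733, 5452 and 2768 in T-ND and 2878, 5794, 4119 and 3245 in T-D. Between PT-D and T-ND Jak1 passed the adjusted p (log2 fold change 0.84, adjusted p = 0.0434, and 0.97, adjusted p = 0.0124 without T-ND replicate 3). Of 17 sensors and adaptors outside the list, 8 passed the adjusted p in PT-D over PT-ND, as did 1593 of 22303 genes in this direction, and 5 of the 8 were called, Irf2, Rigi, Adar, Eif2ak2 and Tlr3. Irf2, a factor that competes with IRF1, had 1115, 749 and 1184 in PT-D and 292 to 347 in PT-ND (log2 fold change 1.63 ± 0.19 SE, adjusted p = 0.00214), and rose over T-ND too (log2 fold change 1.19, adjusted p = 0.048, and 1.5, adjusted p = 0.00546 without T-ND replicate 3). Of 70 further ISGs, 39 were called higher and none lower between PT-D and PT-ND, with a median of 1.22. Over all genes 2.96% were called higher, with a median of 0.05. Not every further ISG was higher on average. Cxcl11 had 74.1, 294.1 and 366.9 normalized counts in PT-ND and 191.5, 54.9 and 121.6 in PT-D, which overlapped. The widest difference of the 70 was 3.33, for Gbp10 (adjusted p = 0.00522). The 6 with the smallest adjusted p were Uba7, the enzyme that activates ISG15 (log2 fold change 2.15, adjusted p = 0.000885), Sp100 (1.62), Ddx60 (2.88), Parp9 (1.86), Apol9b (2.80) and Lgals3bp (1.29).

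Of 8 SOCS and PIAS inhibitors, 1 was called between PT-D and PT-ND, as lower, where 444 of 22303 genes were called lower. In the interaction 2 were called, both negative, where 550 of 22339 genes were called in this direction. Socs1, which shuts off JAK kinases after interferon, had 55.8, 73.1, 189 and 94.6 normalized counts in T-ND and 300.1, 368, 230.1 and 475 in T-D, without overlap (log2 fold change 1.71, adjusted p = 0.116). This difference was called without T-ND replicate 3 (2.18, adjusted p = 0.00559). In preterm mice it had 208, 99.5 and 166 in PT-ND and 132, 53.4 and 132 in PT-D (log2 fold change −0.58, adjusted p = 0.348). All PT-D libraries lay below all T-D libraries, and the interaction was called (log2 fold change −2.31 ± 0.58 SE, adjusted p = 0.0351). Socs3, the inhibitor of cytokines that act through gp130, had 108, 238, 281 and 216 in T-ND, 1082, 903, 424 and 708 in T-D, 1256, 586 and 633 in PT-ND and 830.0, 284 and 567 in PT-D. Its interaction was called as well (log2 fold change −2.44 ± 0.56 SE, adjusted p = 0.0282), and without T-ND replicate 3 both were called as well, at −2.78 and −2.61 (adjusted p = 0.0188 and 0.0349). The Socs3 differences of T-D, PT-ND and PT-D from T-ND were 1.87, 1.97 and 1.40 and not called (adjusted p = 0.0692, 0.0731 and 0.0671). With that library left out they were 2.04, 2.12 and 1.57 and all called (adjusted p = 0.0148, 0.0239 and 0.0374). Cish, an inhibitor of STAT5 signals, was lower in PT-D than in PT-ND (log2 fold change −1.09, adjusted p = 0.00995) and than in T-ND (−1.87, adjusted p = 0.0302). The latter was, without T-ND replicate 3, −2.04 (adjusted p = 0.00868), and T-D was then also called lower than T-ND (−1.39, adjusted p = 0.0341). It had 157, 213 and 152 in PT-D, 396, 408 and 310.4 in PT-ND, 299, 319, 188 and 291 in T-D and 391, 926, 389 and 814 in T-ND.

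**Figure D5:**
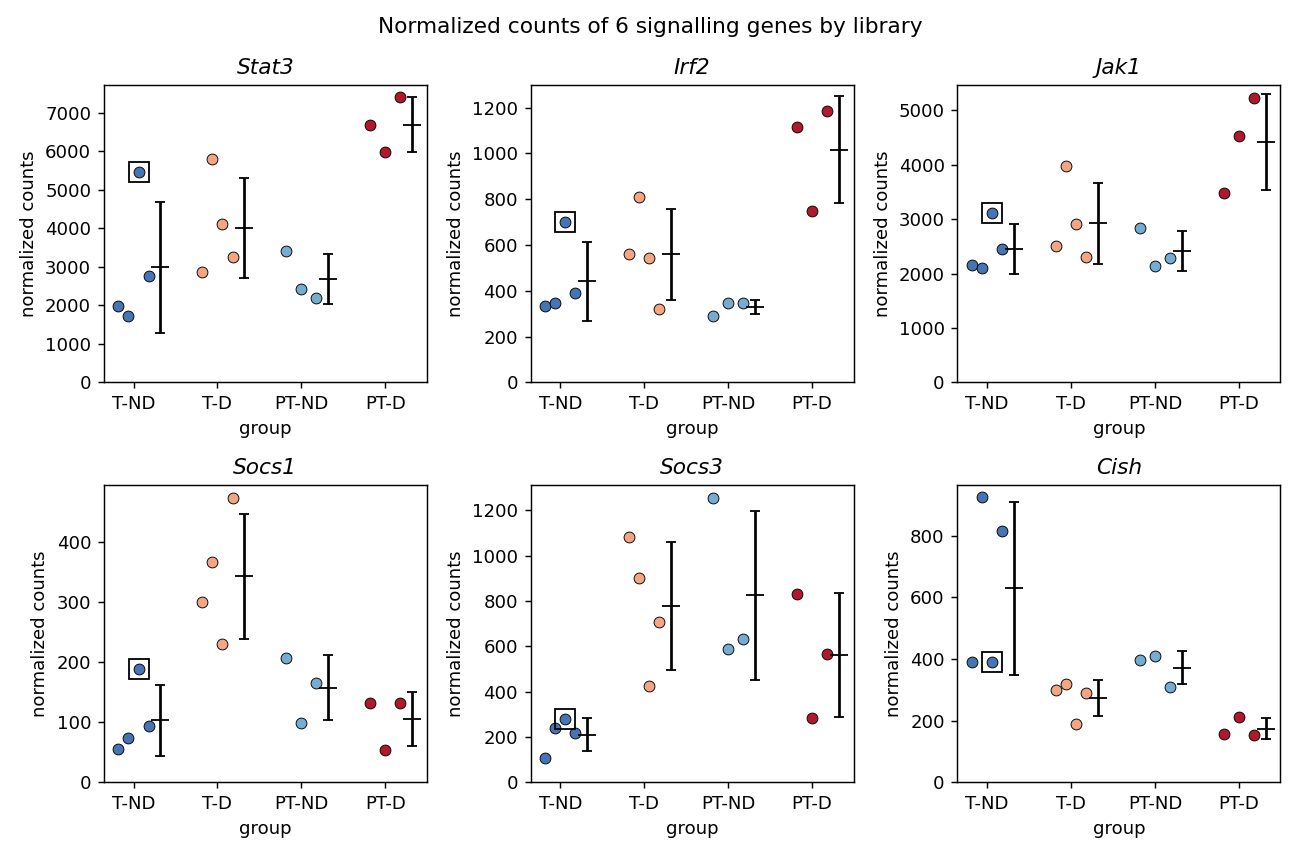
Normalized counts (vertical axes, from 0) of Stat3, Irf2, Jak1, Socs1, Socs3 and Cish in each library by group, with mean ± SD beside the points and a square around T-ND replicate 3. Stat3 and Irf2 are higher in all PT-D libraries than in all PT-ND libraries, while for Socs1 all 3 PT-D libraries (53.4 to 132) lie below all 4 T-D libraries (230.1 to 475).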

How the data were processed

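RNA was isolated from whole kidneys, 1 library per mouse, and sequenced after poly-A selection. The authors aligned reads with STAR to GRCm39 and deposited counts of uniquely mapped reads per gene in unstranded form and for either strand. The unstranded counts were used here, and rows that name no gene were left out. All 56980 identifiers were named from GENCODE M39, which is not the release the authors counted on, and 56236 matched without their version number. Total counts were 16697246 to 28673176 per library. Differential expression was computed with edgeR 4.0.16 in R 4.3.3 (TMM factors, quasi-likelihood test) for the 22339 genes with more than 10 counts over 14 libraries, each pair of groups on its own libraries and the interaction on all 14, with Benjamini-Hochberg adjustment over all genes. Standard errors were the log2 fold change over the square root of F. DESeq2 1.42.0, other normalizations and filters, a joint fit, the name suffix and replicate terms, and fits without each library were alternatives, and those restricted to libraries without the name suffix were added after the data were seen. On simulated counts with 200 genes changed by 2 on the log2 scale, all 200 were recovered between PT-D and PT-ND among 20078 genes, with 11 false calls. For the interaction 195 of the 200 were recovered among 21887 genes, with 5 false calls. Recovery of smaller changes is not given by this simulation.

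The 41 genes, the role groups and the pathway and marker lists were chosen with earlier results of these data known, so counts over them are descriptions. Full values are given for the 12 genes with the smallest adjusted p under 0.05, for the genes of each role with the largest difference in either direction between PT-D and T-ND, PT-D and T-D, and T-D and T-ND, where the mean normalized count was 50 or more, for the 3 highest and 3 lowest levels per length, and for near-identical pairs. Of the pathway lists, genes with an adjusted p under 0.05 are named, at most 6 per list, and Ifng, Ifnb1 and Socs1 always, and 1 further gene is not reported here. Other genes, among them Irf7, Mx1, Mx2, Usp18, Gbp10, Trim12a and the remaining called ISGs, were named after their values were seen. The labels do not say whether mice shared a litter, so p-values measure the spread between these mice only.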

Additional observations from a re-analysis of the deposited data

Results flagged for a closer look

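In groups of 4 libraries, 100 groups of the 41 ISGs and 9 named pathway genes were checked for 1 library far from the other 3, and 9 held one. Chance gives such a gap in about 1 in 20 groups. In T-ND replicate 3 the normalized counts of Ifit1 (12428.8), Ifit2 (8465.0), Rsad2 (11059.7), Igtp (8322.5) and Irf2 (698.7) lay far above the other T-ND libraries. In T-D replicate 2 those of Mx1 (1360.0) and Gbp5 (5377.7) were far above the other T-D libraries, and in T-D replicate 4 that of Ifi27 (3180.5). Ifnb1 in T-ND replicate 1 (1.2) was 1 read against none in the other T-ND libraries.

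By edgeR's test of the interaction, the difference that STZ made was not the same after preterm and term birth for Trim12c (2.73 on the log2 scale, adjusted p = 0.00541), Ifi44 (1.91, adjusted p = 0.0379) and Uba7 (2.09, adjusted p = 0.0427), whose difference was larger in preterm mice, and for Socs1 (−2.31, adjusted p = 0.0351) and Socs3 (−2.44, adjusted p = 0.0282), whose log2 fold changes were positive in term mice and negative in preterm mice, none of these 4 passing the test alone. Without T-ND replicate 3 the change in term mice did pass, at 2.18 for Socs1 (adjusted p = 0.00559) and 2.04 for Socs3 (adjusted p = 0.0148). The interactions of Trim12c, Socs1 and Socs3 were still called without that library, and those of Ifi44 and Uba7 were not.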

How the results depend on the processing

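The number of ISGs called changed by more than 1.5 times as follows, and the cause was not tested. Between PT-D and T-ND, where 2 were called, no filter gave 4, the replicate block 0 and libraries without the name suffix 0. Between PT-D and T-D (1 called), DESeq2 gave 4, no filter 5, and filterByExpr, the suffix term and libraries without the suffix 0 each. Between T-D and T-ND (0), DESeq2, the RLE and upper-quartile normalizations, no filter and the suffix term each gave 1. Between PT-D and PT-ND (32), the joint fit gave 13 and libraries without the suffix 18, the latter with a median of 1.16. Between PT-ND and T-ND (0), DESeq2 gave 2 and no filter 1. For the interaction (2), DESeq2 and the suffix term gave 4 each, no filter 6, the replicate block 1 and libraries without the suffix 0. Leaving out 1 library gave 0 to 28, 0 to 2, 0 to 17, 24 to 37, 0 to 1 and 1 to 3 called ISGs for these comparisons in order, and medians of 0.64 to 1.79, 0.02 to 0.45, 0.50 to 1.55, 1.30 to 1.78, −0.96 to 0.08 and 0.06 to 1.13. Without T-ND replicate 3 the median interaction was 0.06. Among libraries without the suffix the median between PT-D and T-D was −0.17.

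Replicate numbers are shared between groups by number only. Deviations of same-numbered libraries correlated between −0.398 and 0.189, so the numbers were not taken to pair mice. With a replicate block the medians were 1.19, 0.32, 1.12, 1.63, −0.32 and 0.70, and 0, 1, 0, 34, 0 and 1 ISGs were called in the same order. With 3 or 4 mice a group, single calls near the threshold are the least certain, and low counts limit Oas3 and the interferon genes most.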
